A study of Mus musculus with 9 samples.

Results

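The endoplasmic reticulum (ER) genes examined here are 39 genes for the folding, quality control and stress sensing of proteins that enter the secretory pathway, measured by RNA sequencing in RAW 264.7 cells, a transformed mouse macrophage line. They were chosen by symbol and comprise the Hsp70 chaperone system of the ER lumen (8 genes), other luminal chaperones and ER stress proteins (3), the lectin cycle (3), disulfide isomerases (4), prolyl isomerases (2), ER-associated degradation (ERAD, 10), the protein-conducting channel (2), the sensors of the unfolded protein response with the factor XBP1 (5), and Rnf183 and Dnajb2, whose proteins act outside the lumen (2). All 39 were found among the 54432 genes of the table, and all 39 passed the filter on low counts (over 10 counts, reached by 3 or more of the libraries), which left 12637 genes to test.

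The series holds 9 libraries, 3 per group, each from cells of the same line. Control cells were untreated. VLDLsep cells received VLDL-sized emulsion particles and CHYLsep cells received chylomicron-sized ones, in both cases at 1 mM for 6 hours. Per the study's methods the particles were made from sunflower oil with sodium caseinate as emulsifier, and material of a condition was pooled within an experiment. The controls were not given an emulsifier or a lipid-free vehicle, as far as the labels say.

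Proteins bound for secretion enter the ER through the SEC61 channel and fold there with the help of BiP (Hspa5), its J-domain partners, calnexin and calreticulin, and the disulfide isomerases. Proteins that fail to fold are drawn back into the cytosol by ERAD and destroyed. When unfolded proteins accumulate, the sensors IRE1 (Ern1), PERK (Eif2ak3) and ATF6 release the unfolded protein response, which slows translation and raises the transcription of chaperones and ERAD components through spliced XBP1, cleaved ATF6 and ATF4. Macrophages that take up much lipid are a well-known setting for this response. Gene-level counts cannot show the splicing of Xbp1, the cleavage of ATF6 or the phosphorylation of PERK.

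The sequence by which chaperone genes answer this response is the ER stress element (ERSE), CCAAT and CCACG separated by 9 bases, and a shorter form, ERSE-II, is ATTGG and CCACG separated by 1 base. RefSeq promoter windows of GRCm38.p6, from 250 bases before to 50 bases after an annotated start, were at hand for 33 of the 39 genes (38 windows). An ERSE on either strand was present in 9 of these 33 genes, that is in 9 of their 38 windows (23.7%), against 39 of the 32851 windows of all genes (0.119%). The matches are shown because they mark the genes that carry the classical element, read on the strand of the element with its 2 conserved ends in capitals:

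Hspa5: CCAATcggaggcctCCACG
Hsp90b1, nearer the start: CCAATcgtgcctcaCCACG
Hsp90b1, farther from the start: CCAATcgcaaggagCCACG
Calr: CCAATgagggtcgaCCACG
Canx: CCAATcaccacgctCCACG
Pdia6: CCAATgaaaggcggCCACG
Dnajc3: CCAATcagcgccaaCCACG
Creld2: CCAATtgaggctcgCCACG
Syvn1: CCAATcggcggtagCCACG
Derl3: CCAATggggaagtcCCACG

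The elements lay at chr2:34772025-34772043 for Hspa5, chr10:86705533-86705551 and chr10:86705638-86705656 for Hsp90b1, chr8:84847075-84847093 for Calr, chr11:50325800-50325818 for Canx, chr12:17266491-17266509 for Pdia6, chr14:118937827-118937845 for Dnajc3, chr15:88819520-88819538 for Creld2, chr19:6046532-6046550 for Syvn1 and chr10:75893242-75893260 for Derl3. An ERSE-II was found in Herpud1 (chr8:94386377-94386387) and Dnajb11 (chr16:22857852-22857862), with 1 match each:

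Herpud1: ATTGGgCCACG
Dnajb11: ATTGGcCCACG

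ERSE-II thus stood in 5.26% of the 38 windows and in 0.0365% of all windows. The element bound by XBP1 in its classical form (UPRE, TGACGTGG, both strands) was in none of the 38 windows and in 0.676% of all windows. A match is a stretch of letters and not a measured binding site.

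Hsp90b1, which encodes the luminal Hsp90 protein GRP94, was the single gene of the 33 searched with 2 ERSE matches, which lie on opposite strands. Its promoter stretch on the strand of the gene, chr10:86705514-86705674 (minus strand), holds both elements, in capitals, the second of them reversed:

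Hsp90b1 promoter: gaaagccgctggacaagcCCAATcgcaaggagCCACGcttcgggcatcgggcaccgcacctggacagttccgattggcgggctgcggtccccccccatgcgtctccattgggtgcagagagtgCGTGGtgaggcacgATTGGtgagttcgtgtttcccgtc

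The corresponding stretch of Hspa5, chr2:34771970-34772089 (plus strand), which ends at the base before the RefSeq start, has 1 exact element in capitals:

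Hspa5 promoter: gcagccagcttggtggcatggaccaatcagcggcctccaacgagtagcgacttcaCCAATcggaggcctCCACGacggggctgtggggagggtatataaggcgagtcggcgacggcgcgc

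**Figure D1:**
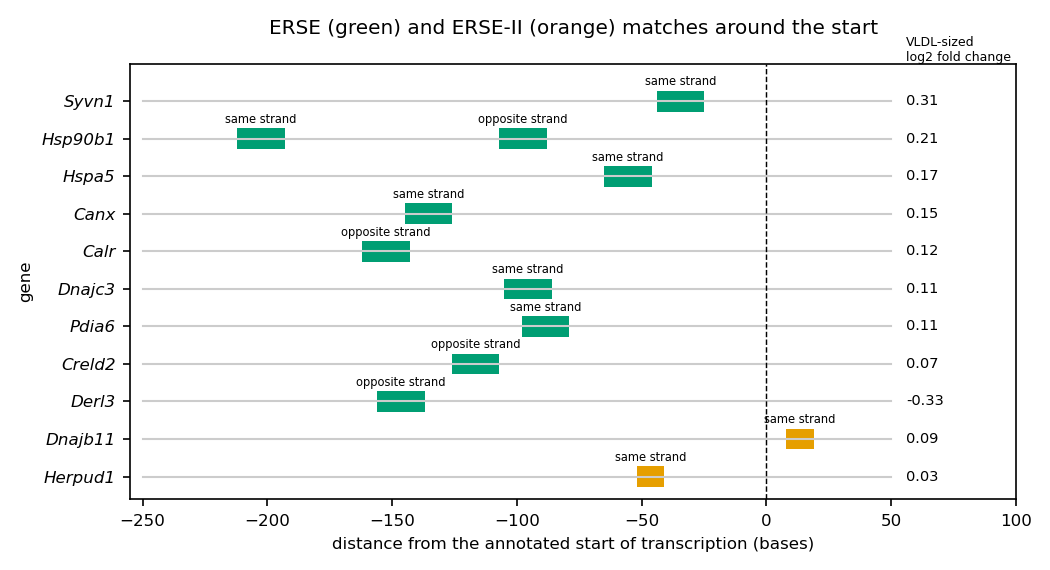
Position of exact ERSE (green) and ERSE-II (orange) matches relative to the annotated start of transcription (horizontal axis, bases), 1 line per gene, with the log2 fold change after VLDL-sized particles at the right. The elements lie in the proximal promoter, apart from that of Dnajb11, which lies just after the start, and genes that carry one range from -0.33 (Derl3) to 0.31 (Syvn1).

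Total counts ran from 22393893 to 22856792 per library, so that 10 counts corresponded to 0.420 to 0.456 cpm (CPM, counts scaled to the TMM-adjusted library size). All 8 macrophage markers were above 10 cpm on average and all 8 markers of fibroblasts, epithelium, T cells, B cells and endothelium were at or below 1.22 cpm in every library, with 3 of them at 0 throughout. The summed macrophage markers were 6109 to 6212 cpm in control, 5594 to 5820 cpm in VLDLsep and 5734 to 5954 cpm in CHYLsep, and their part in the results was not tested. In every group the library numbered 3 stood apart from those numbered 1 and 2, and what the number stands for is not given in the labels. Of the 39 ER genes, 13 (33.3%) had their lowest value in library 3 of every group and 4 (10.3%) their highest, against 19.2% and 18.8% of all genes tested. The genes most reduced in the libraries numbered 3, as the mean log2 difference to libraries 1 and 2, were Xbp1 (-0.45), Ern1 (-0.38), Eif2ak3 (-0.36), Sel1l (-0.26) and Syvn1 (-0.26). Counts of genes that passed are therefore given with and without the libraries numbered 3.

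In untreated cells the ER genes differed widely in level. Levels between genes are given per transcript length, as counts divided by the median length of a gene's coding transcripts and scaled to the sum over all genes (TPM). On this scale Calr, the calcium-binding lectin chaperone calreticulin, was highest at 1367 ± 30.7 (SD, n = 3 here and below), followed by Hsp90b1 (876 ± 7.54) and the disulfide isomerase P4hb (715 ± 8.58). Hspa5 (614 ± 32.4) and Pdia3 (613 ± 12.4) came next, and their control libraries overlapped. In all, 18 of the 39 genes were above 100 TPM, including Xbp1 at 211 ± 44.0. The sensors were lower, with Atf6b at 134 ± 5.27, Atf6 at 61.2 ± 1.23, Eif2ak3 at 26.2 ± 3.42 and Ern1 at 19.1 ± 3.16. The lengths used were 1308.5 bases for Ern1 and 2720 for Eif2ak3. A median over annotated transcripts can be shorter than the transcript expressed, which raises the value, so the order between genes is approximate. The J-domain gene Dnajb9 was at 20.4 ± 0.689 and Dnajb2 at 11.4 ± 2.00, and Derl3 (1.68 ± 0.466) and Rnf183 (1.53 ± 0.0546) closed the order. Of the 38 pairs of neighbours in this order, 19 had overlapping control libraries, among them Derl3 and Rnf183.

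The first comparison asks what VLDL-sized particles did to these genes. After 6 hours, 14 of the 39 genes (35.9%) were changed at an adjusted p under 0.05 and all 14 were higher, beside 35.6% of all genes tested changed, 17.8% higher and 17.9% lower. The share of changed genes was thus near that of all genes, while the direction was not balanced. The log2 fold change was above 0 in 36 of the 39 genes, beside 49.96% of all genes tested. Its median was 0.11 and its range -0.33 to 2.96, against a median of 0.00 over all genes tested. Most of the increases were small. Only 4 genes rose by at least 0.32 on the log2 scale: Rnf183, Dnajb2, Dnajb9 and Edem2. The list was drawn up with earlier results of these libraries known, so the rise of its genes is not independent evidence of a direction. This holds above all for the highest, Rnf183 and Dnajb2. Without them 12 of 37 genes rose and none fell, but these 37 were chosen with the same knowledge. Scaling to library size alone, without TMM normalisation, changed 8 genes, 7 higher and 1 lower (Fkbp2, -0.17), on a scale where the median of all genes was -0.09 and that of the ER genes 0.01. The share of all genes that changed under that scaling is not given here, so the count is not set against it. Under that scaling Hspa5, Canx, Pdia3, P4hb, Syvn1, Derl1 and Atf6 no longer passed, with log2 fold changes of 0.04 to 0.22, and Hsp90b1 and Dnajc10 passed at 0.11 and 0.18. Without the libraries numbered 3, 17 genes rose, Calr, Pdia4 and Herpud1 in addition to the 14, where 42.6% of all genes changed in either direction.

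CHYL-sized particles changed 7 of the 39 genes (17.9%), all 7 higher, beside 25.7% of all genes tested, 12.7% higher and 13% lower. The median log2 fold change was 0.09, against 0.00 over all genes, and the range was -0.17 to 2.84. It was above 0 in 32 of the 39 genes, beside 50.2% of all genes tested. Without Rnf183 and Dnajb2, 5 of 37 genes rose, and these 37 were chosen with the same knowledge of earlier results. Without the libraries numbered 3 the count was 14, all higher, with Hspa5, Creld2, Manf, Calr, Pdia3, Syvn1 and Derl1 in addition to the 7. In that fit 32.8% of all genes changed in either direction. With scaling to library size alone it was 5, since Dnajc10 (0.15) and Hsp90b1 (0.09) no longer passed. Both comparisons use the same 3 control libraries and are not independent. The control and VLDLsep libraries did not overlap, with VLDLsep higher, in 17 of the 39 genes, and the control and CHYLsep libraries did so in 17 genes, beside 23.7% and 20.8% of all genes tested.

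**Figure D2:**
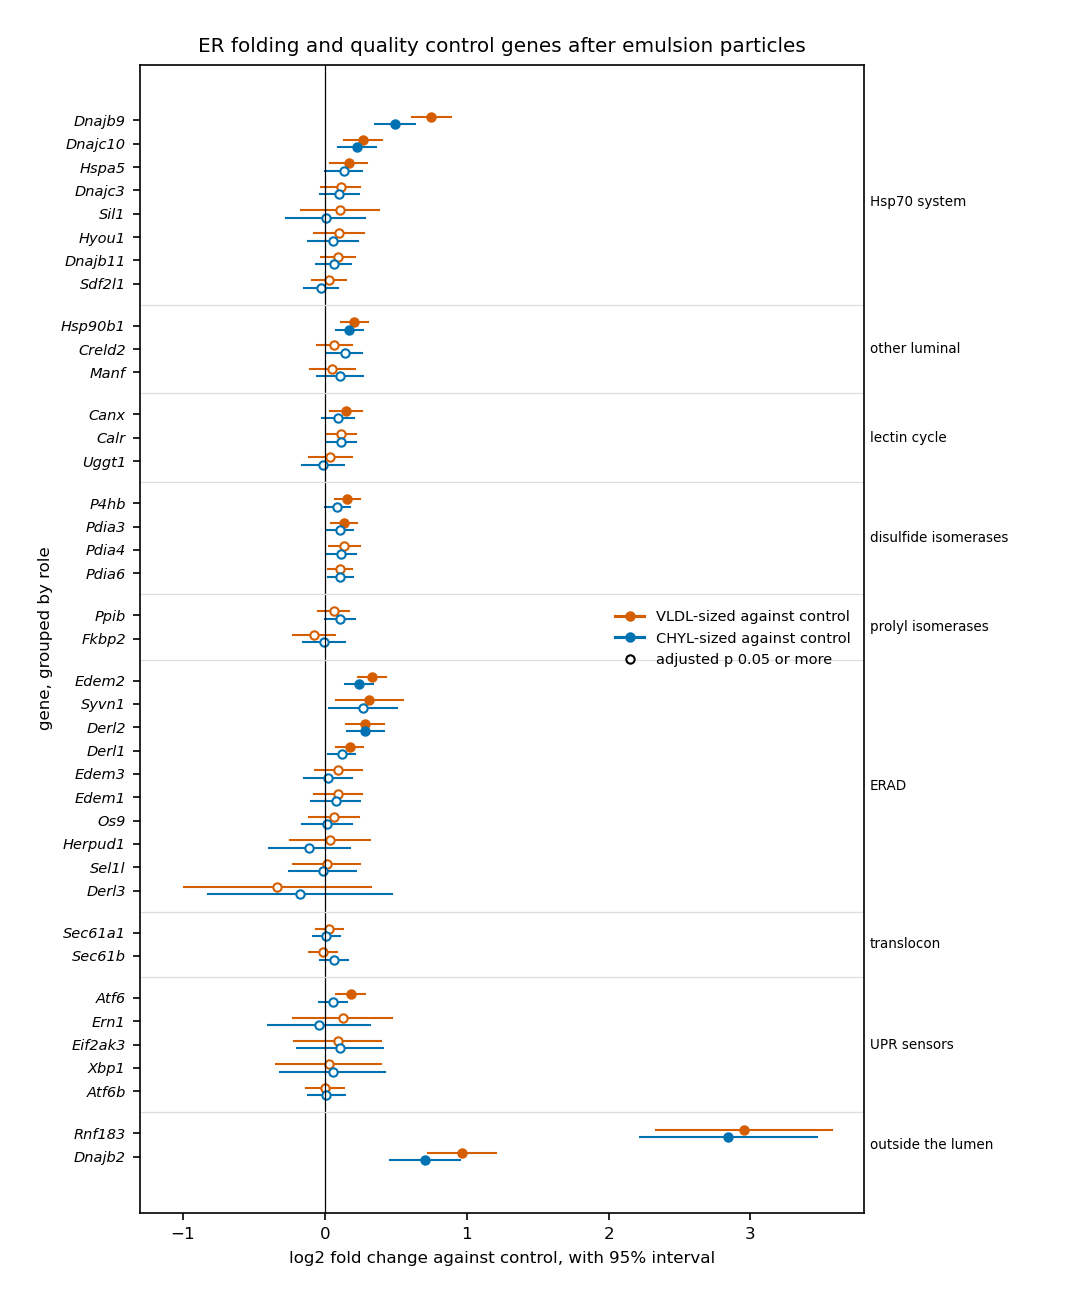
log2 fold change against control (horizontal axis) with its 95% interval from limma-voom for the 39 genes, grouped by role, after VLDL-sized (orange) and CHYL-sized (blue) particles, where filled points have an adjusted p under 0.05. Most points lie just right of 0, and Rnf183 (2.96 and 2.84), Dnajb2 (0.97 and 0.70) and Dnajb9 (0.75 and 0.49) lie farthest out.

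Among the luminal Hsp70 genes, Dnajb9 changed most. It encodes ERdj4, a J-domain partner of BiP that holds IRE1 in check and aids ERAD (chr12:44205559-44210326, minus strand, GRCm38 as for all genes below). The control libraries 1 to 3 gave 25.5, 26.4 and 28.1 cpm, those of VLDLsep 44.3, 45.4 and 44.8 cpm, and those of CHYLsep 37.2, 35.8 and 39.8 cpm. The 3 groups did not overlap, with VLDLsep highest. Dnajb9 rose 1.68-fold after VLDL-sized particles (log2 0.75, 95% interval 0.61 to 0.89, adjusted p = 9.42e-06, limma-voom as throughout) and 1.41-fold after CHYL-sized ones (log2 0.49, 0.35 to 0.63, adjusted p = 0.000279).

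Hspa5, the gene of BiP (chr2:34771970-34777547, plus strand), is the standard reporter of the unfolded protein response. It had 1028, 1060 and 986 cpm in control, 1159, 1199 and 1096 cpm in VLDLsep and 1205, 1120 and 1049 cpm in CHYLsep. All VLDLsep libraries were above all controls, while CHYLsep library 3 fell below control library 2. The difference was 1.12-fold after VLDL-sized particles (log2 0.17, 0.04 to 0.30), at the edge of the threshold with an adjusted p of 0.0496, and 1.10-fold after CHYL-sized ones (log2 0.13, -0.00 to 0.26, adjusted p = 0.136). The VLDLsep call was lost in 10 of 18 alternative settings, among them without any 1 of control libraries 1 to 3 or VLDLsep libraries 1 and 2, where the adjusted p was 0.0647 to 0.162. It held with the replicate number as a block (adjusted p = 0.00287) and without the libraries numbered 3 (0.00586), and without the latter CHYLsep also passed (log2 0.15, adjusted p = 0.0167).

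The third Hsp70 gene that rose was Dnajc10, which encodes ERdj5, a disulfide reductase that prepares proteins for ERAD, with a log2 fold change of 0.27 after VLDL-sized particles (adjusted p = 0.00539) and 0.23 after CHYL-sized ones (adjusted p = 0.0173, lost without control library 1, CHYLsep library 1 or CHYLsep library 3). The other 5 did not pass in either comparison. The Hsp110-type chaperone and exchange factor Hyou1 was at 0.10 and 0.06, the exchange factor Sil1 at 0.11 and 0.01, the J-domain partners Dnajb11 and Dnajc3 at 0.09 and 0.06 and at 0.11 and 0.10, and their associate Sdf2l1 at 0.03 and -0.03, for VLDLsep and CHYLsep respectively.

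Hsp90b1 (chr10:86690209-86705509, minus strand) rose with both particles. It had 1289, 1304 and 1348 cpm in control, 1504, 1533 and 1508 cpm in VLDLsep and 1522, 1431 and 1483 cpm in CHYLsep, with no overlap between control and either particle. The rise was 1.15-fold after VLDL-sized particles (log2 0.21, 0.11 to 0.30, adjusted p = 0.00371) and 1.13-fold after CHYL-sized ones (log2 0.17, 0.08 to 0.27, adjusted p = 0.0144, lost without control library 1 or 2 or CHYLsep library 1). The secreted ER stress proteins Creld2 and Manf did not pass in either comparison with all libraries, at 0.07 and 0.05 after VLDL-sized and 0.14 and 0.11 after CHYL-sized particles. Both passed after CHYL-sized particles without the libraries numbered 3 (0.18, adjusted p = 0.018, and 0.12, adjusted p = 0.048).

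In the lectin cycle, which holds glycoproteins in the ER until they are folded, Canx, the membrane-bound calnexin, rose by 0.15 on the log2 scale after VLDL-sized particles (adjusted p = 0.0425, lost without control library 1 or 2 or VLDLsep library 2 or 3) and was at 0.09 after CHYL-sized ones (adjusted p = 0.205). The soluble calreticulin gene Calr was at 0.12 in both (adjusted p = 0.0743 and 0.0937), and Uggt1, the folding sensor that sends glycoproteins back into the cycle, at 0.04 and -0.01. Of the disulfide isomerases, P4hb (0.16, adjusted p = 0.0114, and 0.06, adjusted p = 0.182, with scaling to library size alone) and Pdia3 (0.14, adjusted p = 0.0266, lost without any 1 of libraries 1 and 2 of control or VLDLsep) rose after VLDL-sized particles, and Pdia4 (0.14, adjusted p = 0.0506) and Pdia6 (0.11, adjusted p = 0.0562) did not pass. After CHYL-sized particles these 4 genes were at 0.09 to 0.11 with none passing. The prolyl isomerases Ppib (0.06 and 0.10) and Fkbp2 (-0.08 and -0.00) and the channel subunits Sec61a1 (0.03 and 0.01) and Sec61b (-0.01 and 0.06) did not pass in either comparison.

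ERAD held 4 of the 14 genes that rose after VLDL-sized particles. Edem2, which encodes a protein that starts the trimming of mannose on glycoproteins bound for degradation (chr2:155701677-155729475, minus strand), had 58.7, 59.5 and 59.3 cpm in control, 76.0, 73.9 and 73.9 cpm in VLDLsep and 71.4, 68.2 and 69.9 cpm in CHYLsep. The 3 groups were separate, with narrow spread. Edem2 rose 1.26-fold (log2 0.33, 0.24 to 0.43, adjusted p = 0.000223) and 1.18-fold (log2 0.24, 0.14 to 0.34, adjusted p = 0.00292). Its relatives Edem1 (0.09 and 0.08) and Edem3 (0.10 and 0.02) did not pass.

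The rhomboid-like channel component genes Derl2 and Derl1 rose after VLDL-sized particles, by 0.28 (adjusted p = 0.0042) and 0.17 (adjusted p = 0.00907, and 0.08, adjusted p = 0.15, with scaling to library size alone) on the log2 scale, and after CHYL-sized ones Derl2 rose by 0.29 (adjusted p = 0.00575) and Derl1 was at 0.12 (adjusted p = 0.0634). Derl3, with 15 to 35 counts per library, was at -0.33 with an interval from -0.996 to 0.33 after VLDL-sized particles, so that neither a fall nor a rise could be seen at this depth. Syvn1, the gene of the ubiquitin ligase HRD1, rose by 0.31 after VLDL-sized particles (adjusted p = 0.0428, lost without control library 1, 2 or 3 or VLDLsep library 1 or 2), while its partner Sel1l was at 0.01. After CHYL-sized particles Syvn1 was at 0.27 (adjusted p = 0.0982), and it passed without the libraries numbered 3 (0.30, adjusted p = 0.00141). The lectin gene Os9 was at 0.07 and 0.02.

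Herpud1, whose membrane protein organises the HRD1 complex and which is induced by both ATF6 and ATF4, moved differently in the libraries numbered 3. It had 40.7, 38.5 and 46.3 cpm in control, 50.02, 43.2 and 36.1 cpm in VLDLsep and 42.1, 41.6 and 33.0 cpm in CHYLsep. Library 3 was the highest of the controls and the lowest of either particle group. The log2 fold change after VLDL-sized particles was 0.03 (adjusted p = 0.863) with all libraries and 0.23 (adjusted p = 0.0187) without those numbered 3. After CHYL-sized particles it was -0.11 and 0.08, neither of which passed.

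Of the sensors, only Atf6 passed, and only after VLDL-sized particles. Atf6 encodes the membrane-bound factor that is cut in the Golgi and then raises chaperone genes (chr1:170704674-170867771, minus strand), and had 231, 238 and 237 cpm in control, 264, 275 and 263 cpm in VLDLsep and 251, 235 and 249 cpm in CHYLsep. VLDLsep lay above both other groups, while control and CHYLsep overlapped. The rise was 1.14-fold (log2 0.18, 0.08 to 0.28, adjusted p = 0.00975), or 0.09 on the log2 scale with scaling to library size alone, which no longer passed (adjusted p = 0.149), and the value after CHYL-sized particles was 0.06 (-0.04 to 0.16, adjusted p = 0.393). Its relative Atf6b (chr17:34647146-34655074, plus strand) had 171, 165 and 184 cpm in control, 175, 173 and 171 cpm in VLDLsep and 161, 179 and 184 cpm in CHYLsep, which overlapped throughout, with log2 fold changes of 0.00 and 0.01 (intervals -0.13 to 0.13 and -0.12 to 0.14).

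Ern1, the gene of the kinase and nuclease IRE1 (chr11:106394650-106487852, minus strand), had 13.3, 15.2 and 11.2 cpm in control, 15.6, 16.6 and 11.4 cpm in VLDLsep and 14.3, 13.1 and 11.1 cpm in CHYLsep. Xbp1, whose mRNA IRE1 splices (chr11:5520659-5525893, plus strand), had 189, 188 and 132 cpm in control, 194, 179 and 142 cpm in VLDLsep and 191, 194 and 141 cpm in CHYLsep. Eif2ak3, the gene of the kinase PERK (chr6:70844515-70905245, plus strand), had 41.0, 39.7 and 32.9 cpm in control, 43.5, 45.0 and 32.9 cpm in VLDLsep and 44.8, 43.2 and 34.5 cpm in CHYLsep. In each of these 3 genes all groups overlapped and library 3 was the lowest of its group.

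None of the 3 passed in either comparison. The log2 fold changes after VLDL-sized particles were 0.12 for Ern1 (-0.23 to 0.48), 0.03 for Xbp1 (-0.34 to 0.40) and 0.09 for Eif2ak3 (-0.22 to 0.39), and after CHYL-sized ones -0.04 (-0.40 to 0.32), 0.05 (-0.32 to 0.43) and 0.11 (-0.20 to 0.41). With the libraries numbered 3 left out the standard error of Xbp1 in the first comparison shrank from 0.17 to 0.05, and its log2 fold change was -0.01 (adjusted p = 0.847). The values of Ern1 and Eif2ak3 were then 0.18 (adjusted p = 0.154) and 0.13 (adjusted p = 0.0777).

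**Figure D3:**
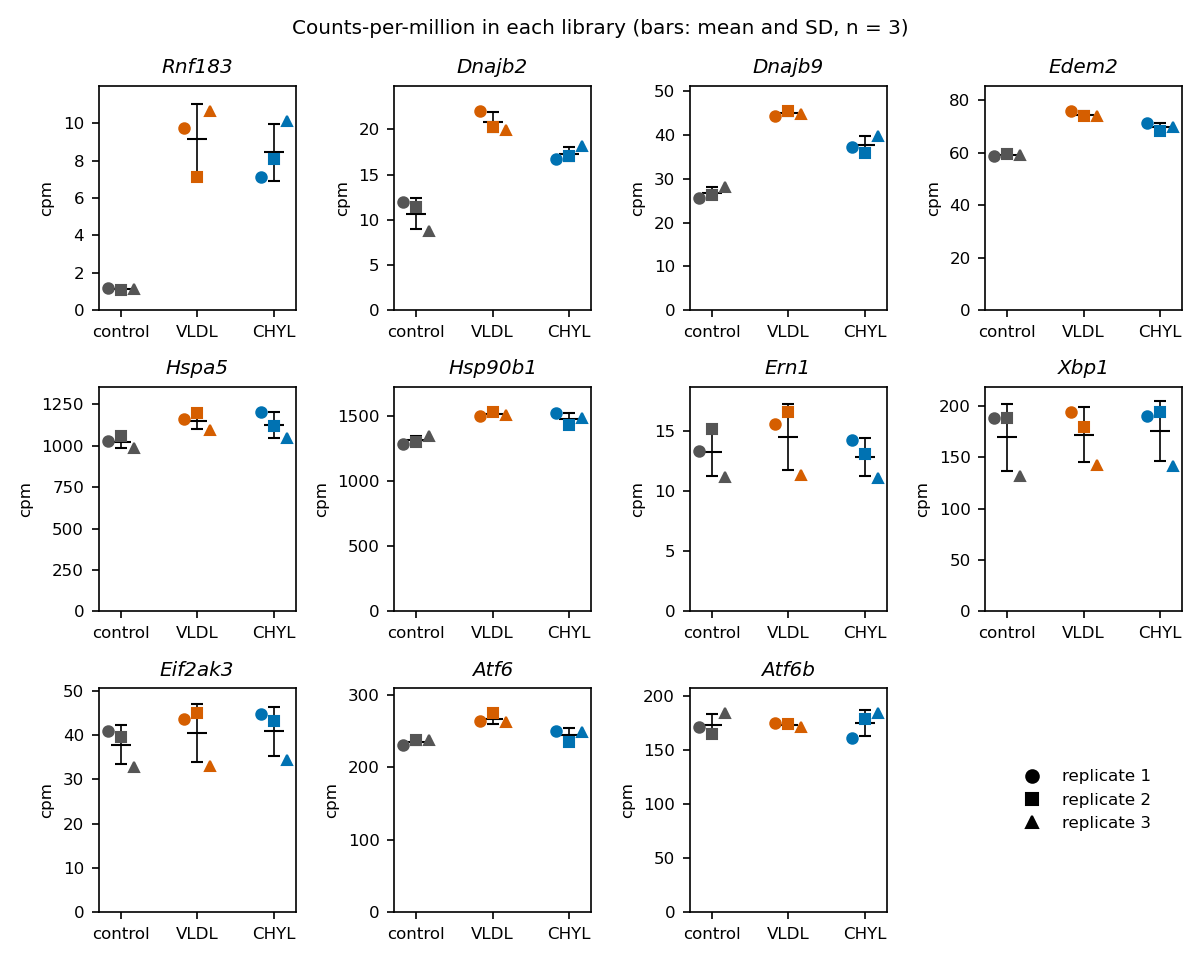
Level in cpm (vertical axes, from 0) of 11 genes in each of the 9 libraries, with replicates 1, 2 and 3 as circles, squares and triangles and the mean and SD of each group as black bars. Dnajb9, Edem2 and Dnajb2 separate into 3 levels, Rnf183 separates control from the particles, and the triangles of Ern1, Xbp1 and Eif2ak3 lie lowest in every group.

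The widest changes in the list were those of Rnf183 and Dnajb2, the 2 genes grouped here as acting outside the lumen. Both were listed with earlier results of these libraries known, so their rank is not independent evidence. It does not show that genes whose proteins act outside the lumen respond most. Rnf183, the gene of a membrane-anchored RING-type ubiquitin ligase (chr4:62427540-62435252, minus strand), had 1.18, 1.10 and 1.16 cpm in control, 9.72, 7.10 and 10.6 cpm in VLDLsep and 7.13, 8.06 and 10.1 cpm in CHYLsep. Every particle library was far above every control, and the particle groups overlapped. The rise was 7.76-fold after VLDL-sized particles (95% interval 5.05 to 11.9, adjusted p = 2.26e-05) and 7.18-fold after CHYL-sized ones (4.66 to 11.1, adjusted p = 5.3e-05), from a level of 26 counts in the lowest library. Dnajb2, which encodes a J-domain partner of cytosolic Hsp70 that sorts proteins to the proteasome (chr1:75236406-75245692, plus strand), had 12.0, 11.4 and 8.75 cpm in control, 22.04, 20.3 and 19.97 cpm in VLDLsep and 16.7, 17.01 and 18.2 cpm in CHYLsep. Its groups did not overlap, and it rose 1.95-fold (log2 0.97, 0.72 to 1.21, adjusted p = 7.6e-05) and 1.63-fold (log2 0.70, 0.46 to 0.95, adjusted p = 0.00112).

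Less abundant genes had the wider range of changes. The 18 genes above 100 TPM in control lay between -0.08 and 0.21 on the log2 scale after VLDL-sized particles and between -0.03 and 0.17 after CHYL-sized ones. The 21 genes below that level spanned -0.33 to 2.96 and -0.17 to 2.84. The lower ends are Derl3, with 15 to 35 counts per library, and the upper ends Rnf183. As Rnf183 was listed with earlier results known, this range is not independent evidence of a wider spread. The 25 genes that did not pass after VLDL-sized particles had values from -0.33 to 0.14, and the largest change inside any of their 95% intervals was -0.996 (Derl3) or 0.48 (Ern1). The standard error of a log2 fold change was 0.0604 in the median gene of the 39.

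Of the 9 genes with an ERSE, 4 rose after VLDL-sized particles (Hspa5, Hsp90b1, Canx and Syvn1), with a median log2 fold change of 0.12, and 1 of 9 (Hsp90b1) rose after CHYL-sized ones, also with a median of 0.12. Of the 22 genes with a window and none of the 3 elements, 8 and 6 rose, with medians of 0.09 and 0.08. The shares of all genes that rose were the 17.8% and 12.7% given above. Without the libraries numbered 3 the counts were 5 and 5 of the 9 genes with an ERSE and 9 and 7 of the 22, and the calls of Hspa5, Canx and Syvn1 are among those lost without single libraries. The 4 genes with the highest fold change, Rnf183, Dnajb2, Dnajb9 and Edem2, were among the latter, which says only that these exact letters are not in the windows searched.

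Since the libraries numbered 3 stood apart in every group, both comparisons with control were also fitted with the replicate number as a block. The VLDLsep comparison then called 18 of the 39 genes, all higher. Beside them, 47.9% of all genes tested changed in either direction. The gain after VLDL-sized particles consisted of Dnajc3 (log2 0.11, adjusted p = 0.039), Calr (0.12, adjusted p = 0.0153), Pdia4 (0.14, adjusted p = 0.0113) and Pdia6 (0.11, adjusted p = 0.0189), so that all 4 disulfide isomerases passed in that fit. The CHYLsep comparison called 17 of the 39 genes in the block fit, all higher, in place of 7 in the main fit. Beside them, 39.2% of all genes tested changed in either direction.

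The comparison of the particles with each other asks whether their size matters for these genes. None of the 39 passed, beside 0% of all genes tested (0 of 12637 in limma-voom, with 813 at an unadjusted p under 0.05), and 3 of the 39 had an unadjusted p under 0.05. By edgeR and DESeq2 none of the 39 passed either, with 0 and 24 of all genes passing. The log2 differences of VLDLsep to CHYLsep ran from -0.16 to 0.26. The VLDLsep libraries lay above all CHYLsep libraries in Dnajb9, Dnajb2, Atf6, Edem2 and P4hb and below them in Sec61b, that is in 5 and 1 of 39 genes, beside 5.66% and 5.63% of all genes. Dnajb9 was 1.19-fold higher in VLDLsep (log2 0.26, 0.12 to 0.39, adjusted p = 0.508), Dnajb2 1.20-fold (log2 0.26, 0.04 to 0.48, adjusted p = 0.698) and Atf6 1.09-fold (log2 0.12, 0.02 to 0.23, adjusted p = 0.685). Without the libraries numbered 3, Dnajb9 passed (log2 0.30, adjusted p = 0.0198) as 1 of the 1.84% of all genes that did so. For Rnf183 and Hspa5 the log2 differences were 0.11 (-0.25 to 0.48) and 0.04 (-0.10 to 0.17).

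The neighbouring steps of the pathway were followed in 5 further lists, none of which shares a gene with the 39. These lists were also drawn up with earlier results of these libraries known, so their shares are not independent evidence of a direction. Beside them, 17.8% of all genes tested were higher and 17.9% lower after VLDL-sized particles, and 12.7% and 13% after CHYL-sized ones. Without the libraries numbered 3, 42.6% and 32.8% of all genes changed in either direction. For scaling to library size alone, the share of all genes is not given here. Of 19 ERAD components beyond the 39 that were tested, 11 rose after VLDL-sized particles and none fell (57.9% higher, median log2 fold change 0.20), and 9 rose after CHYL-sized ones (47.4%, median 0.15). With scaling to library size alone 7 of them rose and 3 fell after VLDL-sized particles, and 6 rose and 1 fell after CHYL-sized ones. Without the libraries numbered 3 the counts were 13 higher and 1 lower (Rnf5, -0.18, adjusted p = 0.0171), and 10 higher. The block fit of the VLDLsep comparison gave 14 higher and 1 lower (Rnf5, -0.15, adjusted p = 0.0349). The highest after VLDL-sized particles were Ubxn4, the gene of the ER membrane anchor for the ATPase p97 (0.95, adjusted p = 2.96e-07, and 0.74, adjusted p = 2.69e-06), and Fam8a1, a partner of the HRD1 complex (0.59, adjusted p = 0.000938, and 0.40, adjusted p = 0.0138, lost without control library 1 or CHYLsep library 1), the second value being that after CHYL-sized particles, where Ubxn8 (0.52, adjusted p = 0.00714) lay above Fam8a1. The p97 gene itself, Vcp, and its cofactors Nploc4 and Ufd1, which together pull proteins out of the membrane, are named after their values were seen: they rose by 0.43, 0.45 and 0.26 after VLDL-sized and by 0.35, 0.32 and 0.24 after CHYL-sized particles.

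Genes for entry into the ER and for N-glycosylation rose in 13 of 31 cases (41.9%) after VLDL-sized particles and in 7 of 31 (22.6%) after CHYL-sized ones. The shares of all genes that rose were 17.8% and 12.7%. None of the 31 fell, and 3 and 1 rose with scaling to library size alone. The counts were 14 and 9 without the libraries numbered 3. Srp14, a subunit of the signal recognition particle, was at 0.29 and 0.27 and the channel partner Sec63 at 0.28 and 0.19, all past the threshold, a call that Sec63 lost after CHYL-sized particles without control library 1 or 2 or CHYLsep library 1 or 3. Of 19 other folding enzymes tested, 4 rose and 3 fell after VLDL-sized particles, and 3 rose and 1 fell after CHYL-sized ones. The shares that rose, 21.1% and 15.8%, were near the 17.8% and 12.7% of all genes. The counts were 6 and 2, and 4 and 1, with libraries 3 left out. Ero1l, the oxidase that recharges the disulfide isomerases and a target of CHOP, rose by 0.62 (adjusted p = 0.000111) and 0.41 (adjusted p = 0.0024), Tmx4 rose by 0.41 after VLDL-sized particles (adjusted p = 0.00272), and Erp29 (-0.26, adjusted p = 0.00405) and the glucosidase gene Mogs (-0.24, adjusted p = 0.012, lost without control library 1) fell.

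Of 17 other genes of unfolded protein response signalling tested, 6 rose (35.3%) and 1 fell after VLDL-sized particles, and 4 rose (23.5%) and 1 fell after CHYL-sized ones. The shares of all genes that rose were 17.8% and 12.7%. With libraries 3 left out the counts were 7 and 2, and 5 and 1. The highest after VLDL-sized particles were Ppp1r15a, which encodes the phosphatase subunit GADD34 that restores translation (1.95, adjusted p = 0.000405, and 1.30, adjusted p = 0.00881), and Ddit3, the gene of CHOP (1.85, adjusted p = 4.13e-05, and 0.92, adjusted p = 0.0079). Both lie downstream of ATF4. Atf4 itself had 213, 208 and 357 cpm in control, 498, 447 and 562 cpm in VLDLsep and 338, 361 and 536 cpm in CHYLsep. It passed after both particles (adjusted p = 0.00434 and 0.0389), though control library 3 lay above CHYLsep library 1. In Atf4, Ddit3 and Ppp1r15a library 3 was the highest of every group. After CHYL-sized particles Trib3 (1.18, adjusted p = 0.00836) lay above Ddit3. Mbtps1, the gene of the Golgi protease that cuts ATF6 and SREBPs, fell by 0.28 (adjusted p = 0.000819) and 0.24 (adjusted p = 0.00311). Of 6 receptors for the autophagy of ER, Retreg1 and Atl3 fell after both particles (33.3%), beside 17.9% and 13% of all genes. They fell by 0.27 and 0.22 after VLDL-sized and by 0.21 and 0.22 after CHYL-sized particles. None of the 6 rose, with the same counts without the libraries numbered 3. In the block fit Tex264 also rose after VLDL-sized particles (0.20, adjusted p = 0.0349). The call of Retreg1 after CHYL-sized particles was lost without control library 1 or 3 or any 1 of the CHYLsep libraries.

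**Figure D4:**
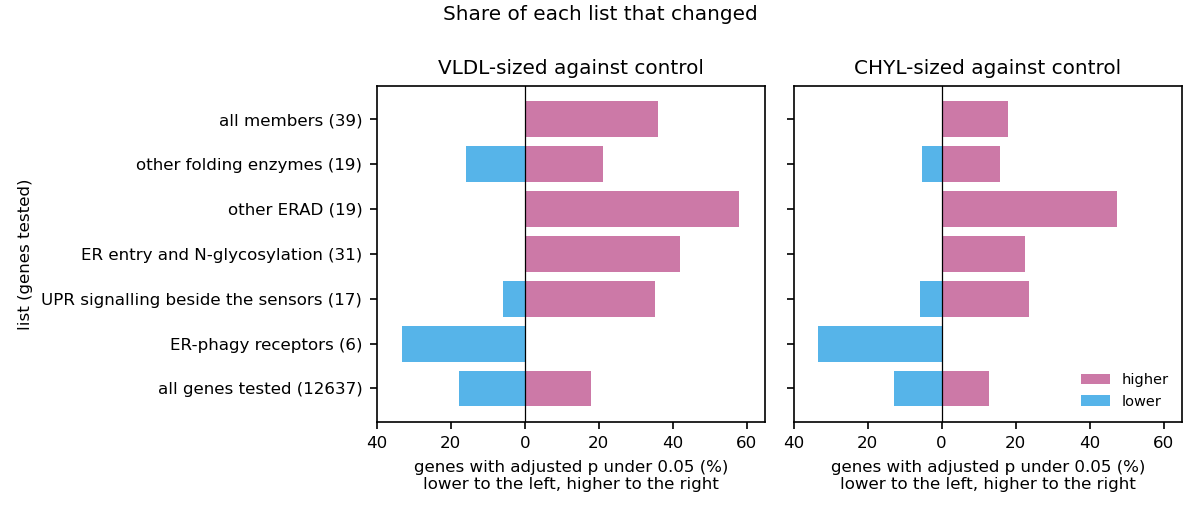
Percentage of the genes tested in each list (number in brackets) that had an adjusted p under 0.05, lower to the left and higher to the right of 0, after VLDL-sized (left panel) and CHYL-sized particles (right panel), with all 12637 genes tested in the lowest bar. The 39 ER genes ("all members"), the other ERAD genes and the genes of ER entry have bars to the right alone, while the 2 changed ER-phagy receptors lie to the left.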

How the data were processed

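RNA of 9 RAW 264.7 libraries was sequenced on BGISEQ-500, and the authors deposited gene-level estimated counts, made with Salmon 0.14.1 (submitters' processing notes, genome GRCm38.p6) and tximport, which show no normalisation (58.3% of values above 10 are whole). The study's methods enter counts scaled for transcript length into limma, which these values do not appear to be, so the fit shares its test and model but perhaps not its input. Groups and replicate numbers came from the labels. The filter asked for over 10 counts in 3 or more of the libraries, and limma-voom was run (limma 3.58.1, edgeR 4.0.16, R 4.3.3) in 1 model of all 9 libraries with TMM normalisation, and p-values were adjusted by Benjamini-Hochberg over 12637 genes. Intervals are at 95%. Values in cpm use TMM-scaled library sizes. DESeq2 1.42.0 served as an alternative, for which counts were rounded. Symbols were matched to 54346 identifiers, and coordinates and lengths are from the GENCODE annotation of GRCm38. Scripts were tested on simulated data.

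The 39 genes and all lists were chosen with earlier results of these data known. Values are given in every library for genes with an adjusted p under 0.05 and a log2 fold change of at least 0.32 in size against control, for the sensors with Xbp1, and for Hspa5 and Hsp90b1. Herpud1 and Atf4 were added after their values were seen. From each further list at most the 2 highest and 2 lowest changed genes after VLDL-sized particles are named by rule. Vcp, Nploc4, Ufd1, Ubxn8, Rnf5, Trib3 and Tex264 were added after their values were seen. Fkbp10, Ppic, Svip and Ern2 had too few counts to be tested. Same-numbered libraries of control and VLDLsep deviated together (r = 0.14, 0.13 and 0.29 over genes), which the labels do not explain, and those of the other pairs of groups did so less uniformly. Replicates were never closer than sampling noise, and p-values measure the spread between these libraries. Protein sequences were not used here.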

Additional observations from a re-analysis of the deposited data

How the results depend on the processing

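All 18 alternative settings of each comparison with control kept the direction of every ER gene that had passed. Of the 14 genes that passed after VLDL-sized particles, 7 (Derl2, Dnajb2, Dnajb9, Dnajc10, Edem2, Hsp90b1 and Rnf183) passed in all 18, and the count was 8 with scaling to library size alone and 10 to 15 without 1 library. Of the 7 that passed after CHYL-sized particles, 5 (Derl2, Dnajb2, Dnajb9, Edem2 and Rnf183) passed in all 18, and the count was 5 to 8 without 1 library. It was 14 without all libraries numbered 3, 18 with a term for those libraries and 17 with a replicate block. Between the particles the count was 0 in the main test and 0 without any 1 library, and 1 (Dnajb9) under each of those 3 settings, with an adjusted p of 0.043 in the replicate block fit. Same-numbered CHYLsep and control libraries had r = 0.12, 0.068 and 0.34, and the unlike-numbered CHYLsep 2 and control 1 had 0.155. The replicate block fit changed 39.2% of all genes after CHYL-sized particles against control and 1.16% between the particles. In it Calcoco1 among the ER-phagy receptors rose after CHYL-sized particles (0.19, adjusted p = 0.0162). For VLDLsep the replicate block gained 4 genes and lost none. The cause of these changes was not tested. The share of all genes is not given here for scaling to library size alone or for fits without 1 library. Nor is it given for the term for the libraries numbered 3, so those counts describe the ER genes alone. With 3 libraries per group, the smallest rise that passed in the main fit was 0.14 (Pdia3) on the log2 scale after VLDL-sized particles. After CHYL-sized ones it was 0.17 (Hsp90b1), so changes of about 0.1 could be missed. Larger changes could be missed in genes with wide intervals, such as Ern1, Xbp1 and Eif2ak3, and in Derl3 with its 15 to 35 counts.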
